A study of Sus scrofa with 21 samples.

Results

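The 8 genes described here encode proteins that burn fatty acids or steer their burning. They are PPARA, CPT1A, CPT2, ACADM, ACADVL, HADHA, PDK4 and ANGPTL4, taken by their Ensembl pig gene names. All 8 were found among the 18661 genes listed in the files, and all 8 passed the filter on low counts that left 13127 genes for testing. RNA sequencing had been performed on distal small intestine from 21 Danish Landrace/Yorkshire piglets aged 24 to 25 days. Milk replacer was the feed of the 10 control piglets, and the 11 piglets of the starch group got it with wheat mixed in. Every piglet was thus fed milk replacer, and the labels name no genetic or drug intervention, sex or litter. The replicates are separate piglets, named here by their group and number.

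Fatty acids enter the mitochondrion as carnitine esters. CPT1 enzymes make the ester on the outer membrane and CPT2 reverses the reaction on the inner side. Acyl-CoA dehydrogenases of different chain-length preference then start each round of beta-oxidation, and the trifunctional protein, whose alpha subunit is HADHA, completes the rounds for long chains. The acetyl-CoA formed is oxidised or turned into ketone bodies. PPARA is the fatty acid-activated nuclear receptor that switches on many of these genes. PDK4 blocks the use of pyruvate by phosphorylating pyruvate dehydrogenase, and ANGPTL4 is a secreted inhibitor of lipoprotein lipase. In suckling rodents the small intestine is itself a site of ketone body synthesis, and milk fat is a main fuel of the suckling gut.

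The files held between 6719264 and 8610458 expected counts per piglet, which are estimated read or fragment numbers that need not be whole. Markers of absorptive enterocytes were expressed throughout, but 3 piglets stood apart. Control 5, control 8 and starch 3 held 1172 to 1238 CPM (counts scaled to a common library size) summed over the 11 absorptive enterocyte markers found, against 11111 to 45026 CPM in the other 18 piglets. General epithelial markers did not separate them, at 4255 to 7316 CPM against 2804 to 6648 CPM. By summed CPM the same 3 piglets were at or near the top for smooth muscle markers (21982 to 38574 against 6425 to 22172 CPM) and goblet cell markers (1622 to 3696 against 429 to 1630 CPM). The same held for endothelial markers (292 to 349 against 151 to 285 CPM). By the endothelial score used further on, a mean of centred log2 CPM, they lay within the others, at 0.12 to 0.45 against -0.54 to 0.54. Between the diets, 6 of 6 goblet cell markers had a fitted value below 0 on starch, as did 48.9% of all tested genes. A value above 0 was found for 5 of 5 tested B cell markers. In edgeR 3 and 2 of them had an unadjusted p below 0.05, against 1.33% of all tested genes, and 0 passed after adjustment. Without control 5, control 8 and starch 3, 0 goblet cell and 0 B cell markers had an unadjusted p below 0.05. In a bulk sample fewer cells of a type and less RNA per cell cannot be told apart. Diet results of the members are therefore given with and without control 5, control 8 and starch 3, and correlations mainly within the other 18. Defining markers of fat and liver, tissues rich in PPARA, PDK4 or ANGPTL4 messages, were low. ADIPOQ, PLIN1 and RETN reached at most 3.00, 1.39 and 4.98 CPM, and ALB and TTR at most 0.62 and 0.17 CPM. The hepatocyte list as a whole summed to 26.4 to 1667 CPM in the control and 88.8 to 1796 CPM in the starch group. Nearly all of it came from CPS1, a urea cycle enzyme that enterocytes also make, and the sum was 26.4 to 88.8 CPM in the 3 piglets that stood apart against 359 to 1796 CPM in the rest. CFD, the 1 adipocyte-list gene that passed the filter, is also made by other cells and carried nearly all of that list's sum. The sum was 174 to 680 CPM in the control and 164 to 479 CPM in the starch group. It was 424 to 680 CPM in the 3 piglets that stood apart against 164 to 410 CPM in the rest.

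Per coding length, the enzymes of the oxidation spiral stood far above the receptor known to control them. FPKM values are fragments scaled for the listed length, which is a coding length, and for sequencing depth. ACADM had the highest median level over the 21 piglets, 166 FPKM, followed by HADHA at 155, ACADVL at 81.5 and ANGPTL4 at 49.7. CPT2 had a median of 24.9 FPKM, CPT1A 17.9, PDK4 6.09 and PPARA 3.25. The first neighbours in this order were not separated, since ACADM was above HADHA in 11 of 21 piglets. HADHA exceeded ACADVL, ACADVL exceeded ANGPTL4 and CPT1A exceeded PDK4 in all 21 piglets. ANGPTL4 exceeded CPT2 in 20 piglets, CPT2 exceeded CPT1A in 17, and PDK4 exceeded PPARA in 17. The ranges of each pair of neighbours overlapped.

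No member passed the test for a difference between the diets. In edgeR's quasi-likelihood test 0 of the 8 genes passed an adjusted p of 0.05, as did 0% of all 13127 genes tested. DESeq2 and limma also called 0. At an unadjusted p below 0.05 the count was 0 of 8 members, against 1.33% of all genes. Fitted log2 fold changes, always starch minus control, were below 0 for 7 of the 8 members and for 48.9% of all genes. The signs of PPARA, CPT2, ACADM and PDK4 turned when 1 piglet was left out. The members' values ran from -0.23 to 0.10 with a median of -0.14, where the median of all tested genes was 0.0039. Leaving out 1 piglet moved the members' median to between -0.19 (without control 8) and -0.085 (without control 6), and it was -0.089 without control 2. Each of the 8 had an adjusted p of 0.9998, and every 95% confidence interval spanned 0.

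**Figure D1:**
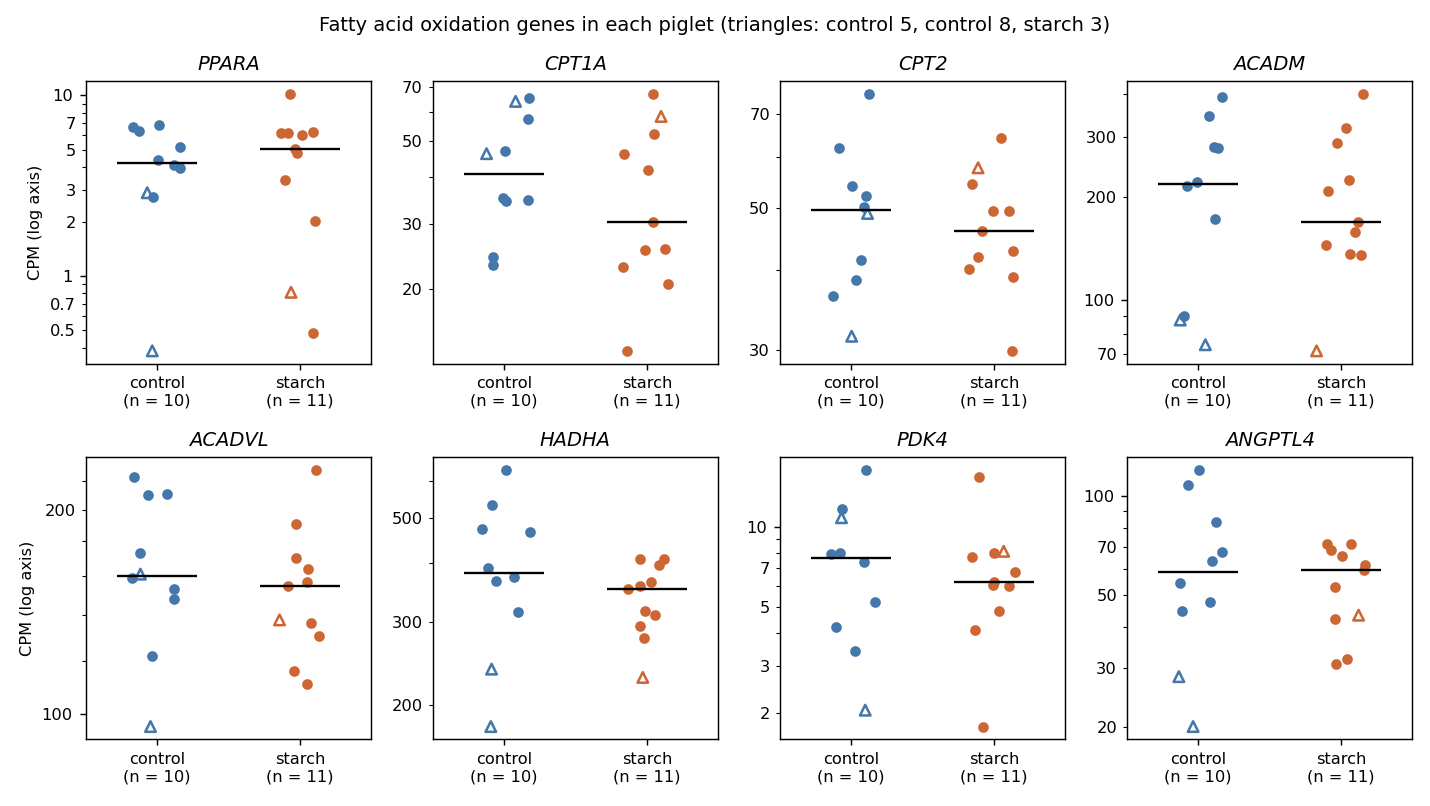
CPM (log axis) of the 8 genes in each control (blue, n = 10) and starch (orange, n = 11) piglet, with the group median as a black bar and control 5, control 8 and starch 3 as open triangles. The diets overlap for every gene, and the triangles lie low for HADHA, ACADM and, in the control group, ANGPTL4.

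PPARA, the receptor, was the scarcest and the most variable of the members. In control piglets it read 0.38 CPM at the lowest (control 8), 4.24 at the median and 6.85 at the highest (control 9). In starch piglets the values were 0.49 (starch 11), 5.03 and 10.2 CPM (starch 5). The groups overlapped almost fully, and control 8 and starch 11 had only 3 expected counts each. The log2 fold change was 0.10 (SE 0.41, 95% interval -0.74 to 0.95). Its biological coefficient of variation, edgeR's estimate of the relative spread between piglets beyond counting error, was 62.9%, higher than that of 92.7% of tested genes. PPARA had at most 87 expected counts in a piglet, which leaves it the least precisely counted member. Among the related receptors PPARD had the highest level, with a median of 31.1 FPKM, while PPARG, the receptor best known from fat cells, had 4.69 FPKM and was above PPARA in 13 of 21 piglets.

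The 2 carnitine palmitoyltransferases differed in how steady they were. CPT1A, the controlled entry step, ran from 23.2 CPM (control 1) through a median of 40.7 to 65.4 CPM (control 3) in control piglets. In starch piglets it ran from 13.6 (starch 1) through 30.2 to 67.1 CPM (starch 4). Its log2 fold change was -0.23 (SE 0.26, 95% interval -0.77 to 0.30). CPT2 lay between 31.5 and 75.3 CPM in control and between 29.9 and 64.3 CPM in starch piglets, with medians of 49.6 and 45.9 CPM. Its log2 fold change was -0.07 (SE 0.15, 95% interval -0.38 to 0.24). The highest piglet exceeded the lowest 4.93-fold for CPT1A and 2.52-fold for CPT2, and the coefficients of variation were 41.4% and 25.3%. CPT1A was counted on 3 transcripts that received 33.2%, 33.6% and 33.2% of its counts, so the files do not tell these forms apart. CPT1B, known as the muscle form, was not far below CPT1A, at a median of 13.4 against 17.9 FPKM, and CPT1A was the higher in 16 of 21 piglets.

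The acyl-CoA dehydrogenases for medium chains (ACADM) and very long chains (ACADVL) differed in their spread between piglets. ACADM read 74.3 CPM in control 5, 218 CPM at the control median and 392 CPM in control 7. On starch it read 71.3 CPM in starch 3, 170 CPM at the median and 400 CPM in starch 5 (log2 fold change -0.07, SE 0.31, 95% interval -0.71 to 0.57). The piglets that stood apart held the lowest ACADM value of each diet, and control 4, which had its absorptive markers, was nearly as low at 90.0 CPM. ACADVL varied less, from 96.0 through 160 to 223 CPM without wheat and from 111 through 155 to 229 CPM with it (log2 fold change -0.10, SE 0.15, 95% interval -0.41 to 0.21). Its highest piglet exceeded the lowest 2.39-fold, against 5.61-fold for ACADM, and the coefficients of variation were 26.5% and 49.6%. Among 8 acyl-CoA dehydrogenase genes these 2 had the highest median FPKM. ACADL, for long chains, came next at 65.2 FPKM, and ACADS, for short chains, had 34.6 FPKM.

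HADHA, the alpha subunit of the trifunctional protein, had the smallest p among the members. It read 180 CPM (control 5), 383 CPM at the median and 634 CPM (control 2) in the control group. In the starch group it read 229 CPM (starch 3), 353 CPM at the median and 408 CPM (starch 7). The lowest control and the lowest starch piglets were those that stood apart, and 4 control piglets lay above every starch piglet. The means were 397 ± 136 CPM (SD, n = 10) and 338 ± 57.7 CPM (SD, n = 11). The log2 fold change was -0.23 (SE 0.18, 95% interval -0.60 to 0.13, unadjusted p = 0.203). Among the 18 piglets left when control 5, control 8 and starch 3 were taken out it was -0.35 (95% interval -0.62 to -0.07). Its unadjusted p was then 0.0179 and, by edgeR, its adjusted p 0.9999. In those 18 piglets HADHA was the 1 of 8 members at an unadjusted p below 0.05, where 2.91% of 13139 genes reached it. After adjustment 0% passed. By sign, 45.3% of all genes were lower on starch in those 18 piglets. In a separate fit that left out only control 2, the highest piglet, the log2 fold change of HADHA was -0.13 (unadjusted p = 0.442).

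PDK4 and ANGPTL4, which act on fuel choice outside the oxidation spiral, also overlapped between the diets. PDK4 ran from 2.05 CPM (control 8) through 7.66 to 16.5 CPM (control 9) in control and from 1.78 CPM (starch 11) through 6.21 to 15.4 CPM (starch 7) in starch piglets. Its log2 fold change was -0.18 (SE 0.32, 95% interval -0.85 to 0.49) and its coefficient of variation 50.1%. PDK2 and PDK3, other kinases of the same target, had higher median levels, 20.9 and 18.7 FPKM, than PDK4 at 6.09 FPKM. ANGPTL4 ran from 20.01 CPM (control 5) through 58.9 to 120 CPM (control 2) in control piglets. On starch it ran from 31.0 (starch 10) through 59.4 to 71.6 CPM (starch 7). The medians nearly coincided, while the control group spread wider at 63.6 ± 32.2 against 54.5 ± 15.2 CPM (SD, n = 10 and 11). The log2 fold change was -0.22 (SE 0.25, 95% interval -0.75 to 0.30), and -0.40 (95% interval -0.84 to 0.04, unadjusted p = 0.0750) without the 3 piglets. Without control 2 alone, the highest piglet, it was -0.072, and without control 6 alone -0.11.

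**Figure D2:**
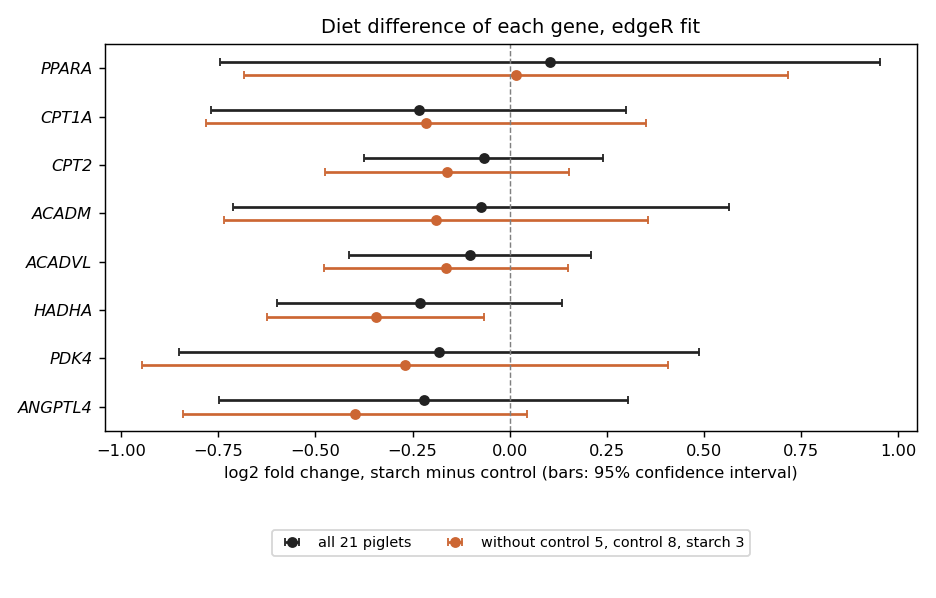
Log2 fold change (starch minus control) of each gene with its 95% confidence interval from the edgeR fit, for all 21 piglets (black) and without control 5, control 8 and starch 3 (orange). Every black interval spans 0, and of the orange ones only that of HADHA, -0.62 to -0.07, lies below 0 before adjustment for the genes tested.

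The rest of the pathway was read from 10 lists holding 114 genes. Of these, 102 were found, 92 were tested, and 0 passed an adjusted p of 0.05 for diet. At an unadjusted p below 0.05 there were 0 of 92 too. Fitted changes were above 0 for 41 and below 0 for 51 genes, with a median of -0.01.

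Among the genes of ketone body synthesis and use, BDH1, which forms beta-hydroxybutyrate, had a median of 18.3 FPKM. OXCT1, which re-activates ketone bodies for burning, had 36.1 FPKM, and ACAT1, the mitochondrial thiolase used in both directions, 66.5 FPKM. OXCT1 averaged 51.0 ± 13.7 CPM without and 59.1 ± 17.0 CPM with wheat (log2 fold change 0.21, 95% interval -0.13 to 0.56), and BDH1 had a log2 fold change of 0.17. BDH2 had the highest level of the list, 102 FPKM, and a log2 fold change of -0.33. Of the 5 tested genes 4 had a value above 0 and 0 passed.

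In the carnitine shuttle 4 of 5 tested genes had a value below 0, among them SLC25A20, the inner membrane carrier (-0.15), and CRAT, the acetyltransferase (-0.09). CPT1C had -0.13. Of 15 tested genes of mitochondrial beta-oxidation 11 had a value below 0, with a median of -0.05. The short-chain hydratase ECHS1 had the highest level, 206 FPKM, and a log2 fold change of -0.08. HADH, the next dehydrogenase of the spiral, averaged 165 ± 66.4 CPM without and 146 ± 43.6 CPM with wheat (-0.17). ACAD9, highest by far in control 7 within its group, had -0.13 and ECI2 -0.12. Among the 11 peroxisomal genes 7 had a value below 0, the median was -0.01, and ACAA1, the peroxisomal thiolase, was the most abundant at 51.5 FPKM with -0.05. PEX11A, a peroxisome division factor, had -0.21, ACOX2 0.18 and ABCD4 0.23.

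Fatty acid uptake and activation had the widest values of the 10 lists. FABP1 and CD36, which are also on this list, were not found by symbol. Among the tested genes FABP2, the intestinal fatty acid binding protein, was the most abundant at a median of 2151 FPKM. Its log2 fold change was -1.09 with a 95% interval of -2.63 to 0.46 (unadjusted p = 0.159), and control 2 stood far above the other control piglets at 4298 CPM. ACSL3, an acyl-CoA synthetase, averaged 819 ± 506 CPM without and 584 ± 361 CPM with wheat (-0.49, 95% interval -1.49 to 0.52), and ACBD3 had -0.14. In all, 9 of 12 tested genes had a value below 0.

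Among the 10 tested PPAR receptors and coregulators, NCOR1, a corepressor of nuclear receptors, had the smallest p. It averaged 342 ± 99.6 CPM without and 277 ± 48.2 CPM with wheat (log2 fold change -0.31, 95% interval -0.62 to 0.01, unadjusted p = 0.0558). PPARG had -0.56, and -0.085 without the 3 piglets, of which control 8 had the highest control level at 39.5 CPM. PPARD had 0.09 and ESRRA, the most abundant of the list at 66.4 FPKM, had 0.03. Of 9 other PPAR target genes tested, 5 had a value below 0. PLIN2, which coats lipid droplets, averaged 119 ± 40.5 CPM without and 96.0 ± 27.6 CPM with wheat (-0.30, 95% interval -0.69 to 0.08). KLF11 had -0.34, UCP2 0.54 and TXNIP, the most abundant, 0.05.

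The lists on glucose use, lipolysis and fat synthesis had values on both sides of 0. Of 11 genes for pyruvate dehydrogenase and its regulators, 8 had a value above 0 and the median was 0.04. PDK1 had 0.34, PDK3 -0.11 and PDHB, a subunit of the enzyme and the most abundant of the list at 114 FPKM, 0.07. LPL, the lipase that ANGPTL4 inhibits, averaged 19.4 ± 10.3 CPM without and 25.3 ± 11.1 CPM with wheat (0.38, 95% interval -0.19 to 0.95). LIPE, the hormone-sensitive lipase, had 0.26, LMF1, a maturation factor for lipases, -0.18 and PNPLA2, the first lipase of fat droplets, -0.14. Of the 8 tested genes of malonyl-CoA and fatty acid synthesis 4 had a value above 0. SREBF1 and MLXIPL, transcription factors that switch on fat synthesis, had -0.23 and 0.33, and MLYCD, which breaks down malonyl-CoA, had -0.14.

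**Figure D3:**
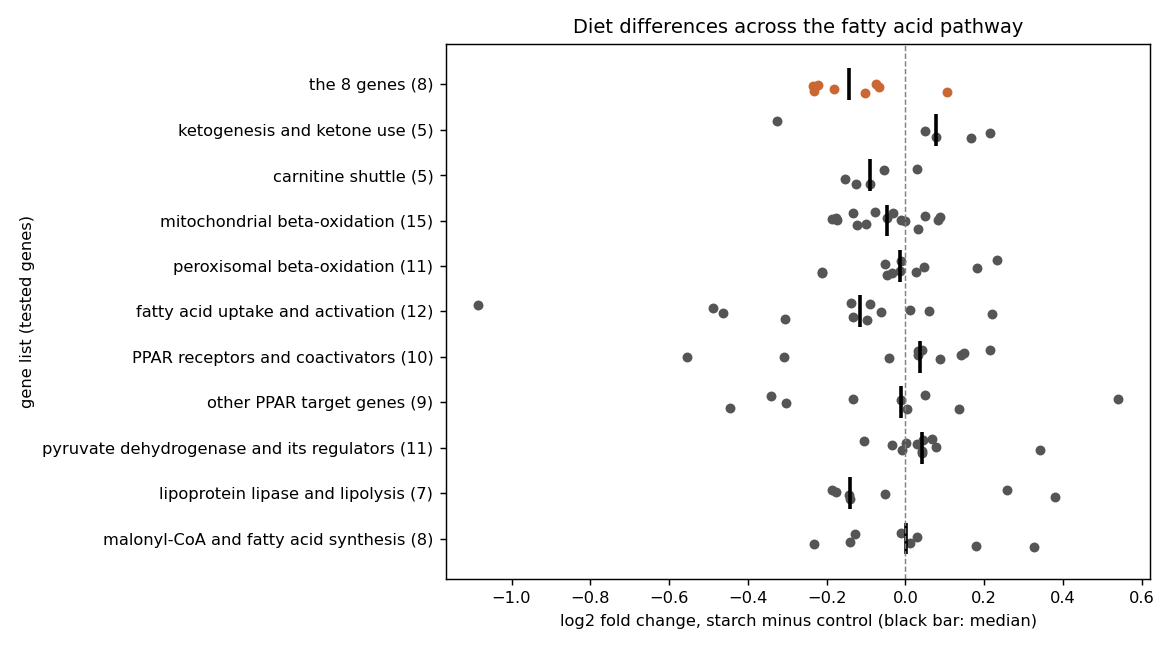
Log2 fold change (starch minus control) of every tested gene of the 8 members (orange) and of 10 further lists (grey), with the number of tested genes in brackets and the list median as a black bar. Most genes lie between -0.5 and 0.5, and the far left point is FABP2 at -1.09.

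Across piglets the members did not vary as 1 group. Over all 21 piglets 4 of 28 pairs passed an adjusted p of 0.05 by Spearman's rho on log2 CPM (permutation test with 100000 resamples, two-sided, adjusted over the 28 pairs). Since 3 piglets formed a separate cluster by their absorptive markers, correlations are given within the other 18. There 2 pairs passed. ACADVL and HADHA went together with r = 0.83 (permutation p = 3e-05, adjusted p = 0.00084) and rho = 0.83 (p = 9e-05, adjusted p = 0.0025). Leaving out starch 10 and starch 11, the piglets farthest from the median of ACADVL, gave r = 0.86. HADHA and ANGPTL4 had r = 0.76 (p = 0.00037, adjusted p = 0.0052) and rho = 0.68 (p = 0.0024, adjusted p = 0.034). Without control 2 and control 6 their r was 0.54 and rho no longer passed (adjusted p = 0.154). The relation was smaller without them and kept its direction. ACADVL and ANGPTL4 passed by r (0.68, p = 0.0018, adjusted p = 0.017) and missed by rho (0.62, adjusted p = 0.058).

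ACADM went a separate way. Within the 18 piglets its rho was -0.04 with HADHA, -0.08 with ACADVL and 0.20 with ANGPTL4, although all 4 genes were low in control 5. Its values with CPT1A and CPT2 were -0.52 and -0.50, each with an adjusted p above the threshold (0.118 and 0.124). For PPARA 0 of its 7 pairs passed. Its rho was 0.40 with PDK4, 0.34 with ACADM, 0.04 with CPT1A, -0.28 with HADHA, -0.29 with ANGPTL4, -0.29 with CPT2 and -0.53 with ACADVL.

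**Figure D4:**
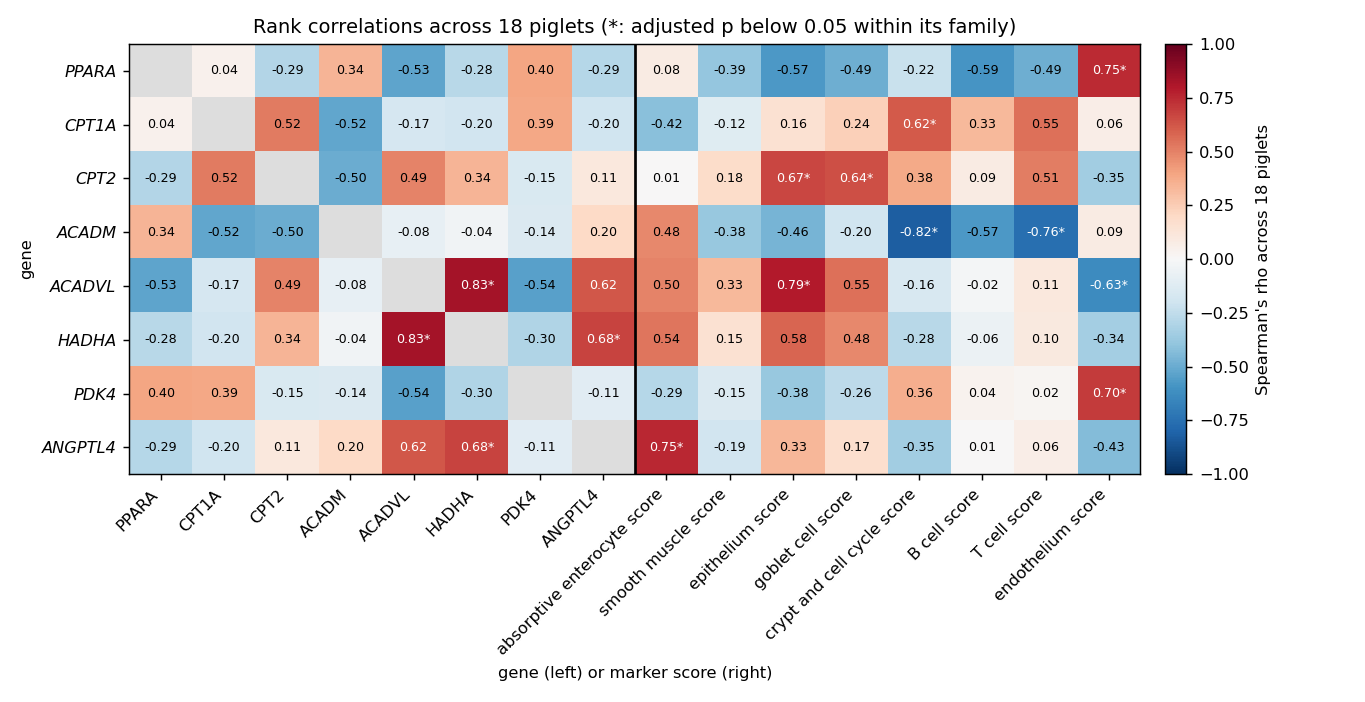
Spearman's rho on log2 CPM across 18 piglets (without control 5, control 8 and starch 3) between the 8 genes (left of the line) and with marker scores (right), with an asterisk for an adjusted p below 0.05 within its family. ACADVL with HADHA (0.83) and ACADM with the crypt and cell cycle score (-0.82) are the strongest of each sign.

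The members were also set beside marker scores, each the mean of centred log2 CPM over the tested markers of a cell type. Of 16 relations with the absorptive enterocyte and smooth muscle scores 7 passed by rho over all 21 piglets and 1 within the 18. ANGPTL4 followed the absorptive score with r = 0.79 (permutation p = 1e-04, adjusted p = 0.0016) and rho = 0.75 (p = 0.00058, adjusted p = 0.0093). Without control 2 and control 6, which had the highest absorptive scores, r was 0.64 and rho no longer passed (0.65, adjusted p = 0.125). HADHA had rho = 0.54, ACADVL 0.50, ACADM 0.48 and CPT1A -0.42 with that score, none of which passed. With the smooth muscle score rho lay between -0.39 (PPARA) and 0.33 (ACADVL).

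**Figure D5:**
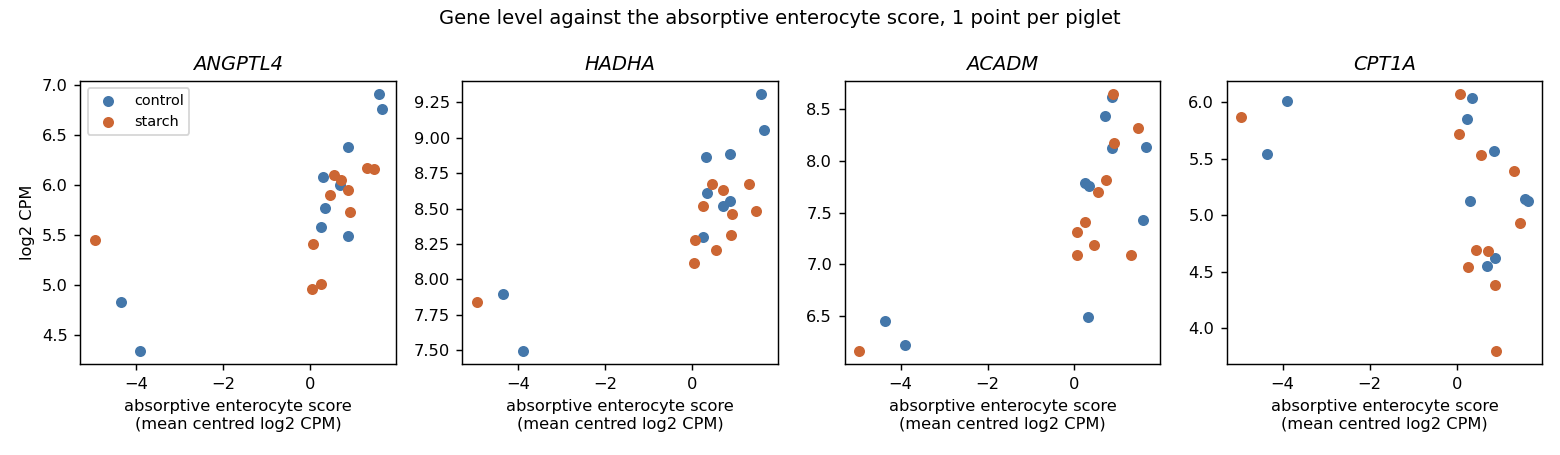
Log2 CPM of ANGPTL4, HADHA, ACADM and CPT1A against the absorptive enterocyte score (mean centred log2 CPM), 1 point per control (blue) or starch (orange) piglet. The 3 points at the left of each panel, at scores of -4.96 to -3.91, are control 5, control 8 and starch 3, which are low for HADHA and ACADM and not for CPT1A.

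A further 48 relations with 6 other scores were chosen after the data were seen. Over all 21 piglets 16 of them passed by rho. Within the 18 piglets 9 passed. The largest was that of ACADM with the crypt and cell cycle score (r = -0.77, permutation p = 0.00026, adjusted p = 0.0125; rho = -0.82, p = 9e-05, adjusted p = 0.0038). Without starch 5 and control 7 it was r = -0.67. ACADM also went against the T cell score (r = -0.68, p = 0.0020, adjusted p = 0.0190; rho = -0.76, p = 0.00065, adjusted p = 0.0078), with r = -0.75 once control 2 and starch 1 were left out. ACADVL rose and fell with the epithelial score (r = 0.72, p = 0.00076, adjusted p = 0.0170; rho = 0.79, p = 0.00016, adjusted p = 0.0038), with r = 0.83 without starch 4 and starch 11. PPARA and PDK4 went with the endothelial score (rho = 0.75, p = 0.00049, adjusted p = 0.0078, and rho = 0.70, p = 0.0016, adjusted p = 0.0153). Their r values were 0.66 and 0.62 (p = 0.0020 and 0.0058, adjusted p = 0.0190 and 0.0252), and 0.59 and 0.58 without starch 5 and control 9, where PPARA no longer passed by rho (adjusted p = 0.063) and PDK4 did (0.035). Over all 21 piglets PPARA did not pass with the endothelial score (rho = 0.38, adjusted p = 0.169) and PDK4 did (rho = 0.60, adjusted p = 0.024). The other 4 of the 9 within the 18 piglets were CPT2 with the epithelial and goblet cell scores (rho = 0.67 and 0.64), CPT1A with the crypt and cell cycle score (0.62) and ACADVL with the endothelial score (-0.63). None of these 4 passed once the 2 piglets farthest in the score were left out. The part of cell composition in these correlations was not tested.

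The genes most like each member were chosen by Spearman's rho over the 21 piglets, from 13119 values for each, and their rho within the 18 piglets is given here. They were different for every member. For PPARA they were LRIG2 (0.96), SLC4A4 (0.89) and ICE2 (0.87). For ACADM they included VPS33A (0.96) and ISCA2 (0.94), beside ENSSSCG00000040711 (0.95), which has no symbol. For ACADVL they were EPN1 (0.96), DNAJC4 (0.92) and ZNF524 (0.92), and for HADHA GALT (0.92), TMEM82 (0.92) and EXD3 (0.90). For ANGPTL4 they included SLC25A34 (0.87) and CDHR5 (0.83). For CPT1A they were CDCA7L (0.79), MYD88 (0.79) and SLC22A3 (0.76), for CPT2 SLC35A4 (0.85), TAP2 (0.83) and PSMB10 (0.79), and for PDK4 NID1 (0.82), ABL1 (0.75) and CHRDL1 (0.76).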

How the data were processed

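The authors deposited 1 table per piglet with a row per transcript of the Ensembl pig annotation, holding, per the file headers, its length, the expected count before any normalisation, and an FPKM value the authors had scaled by length and library. HISAT and DESeq2 are named in the submitters' processing notes without version or role. What build and which counting tool were used is not given in the sources used here. Expected counts were summed per gene and rounded, and FPKM values summed. Transcripts not listed for a piglet were taken as 0. Of 18661 genes, 14276 matched a symbol. CPM values use TMM-scaled library sizes.

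The diets were compared with edgeR 4.0.16 in R 4.3.3 (quasi-likelihood F test, filterByExpr with a minimum count of 10 and total of 15, diet as the only term, Benjamini-Hochberg over all tested genes at 0.05), first checked on simulated counts. Scores and correlations used log2 CPM with a prior count of 2, and permutation tests 100000 resamples. Correlations with a marker list needed at least 3 tested markers. Alternatives were RLE scaling, no filter, DESeq2 1.42.0, limma 3.58.1 on log2(FPKM + 0.5), the replicate number as a block, the absorptive or smooth muscle score as a covariate, and leaving out piglets. Named genes are the 8 members, the 3 genes of smallest p and the most abundant of each list, the 3 genes most like each member, and marker genes. Relatives and partners of a member and ACAT1 were named outside this rule, after their values were seen. Some genes that the rule takes in are not reported here. The members and lists were chosen with earlier results of these data known. Totals of 6719264 to 8610458 counts per piglet gave PPARA 3 to 87 counts, PDK4 11 to 149 and every other member at least 104. Lengths are coding lengths, nearly all multiples of 3.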

Additional observations from a re-analysis of the deposited data

Results flagged for a closer look

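Among 66 named genes, 3 had 1 control piglet far from the other 9, by its gap to the nearest value as a share of the group's range. Chance alone flags about 1 in 20 groups, and none of the 8 members was among them. FABP2 read 4298 CPM in control 2, where the next control piglet had 1743 CPM. ACAD9, an assembly factor and acyl-CoA dehydrogenase of mitochondria, read 49.4 CPM in control 7 against 32.8 CPM in the next. PPARG read 39.5 CPM in control 8 against 22.7 CPM in the next. The starch group, with 11 piglets, was not checked in this way.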

How the results depend on the processing

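The count of genes differing between the diets was 0 in every alternative run, with 117 to 524 genes at an unadjusted p below 0.05, and the count of members was 0 as well. Each member was fitted under 29 alternatives, of which 21 left out 1 piglet and kept the others. The values are thus not independent of each other or of the main fit. Of 232 values of the members' log2 fold changes under alternatives, 221 kept their direction, and the smallest adjusted p was 0.9997. CPT1A, ACADVL, HADHA and ANGPTL4 kept theirs in all 29, with sizes that moved: leaving out 1 piglet gave -0.36 to -0.14 for CPT1A (without starch 4 and starch 1), -0.17 to -0.045 for ACADVL (without starch 11 and control 2), -0.32 to -0.13 for HADHA and -0.33 to -0.072 for ANGPTL4 (both without control 5 and control 2). ANGPTL4 was -0.058 once the smooth muscle score was a term. PPARA was -0.044 with limma on FPKM and -0.052 once the absorptive score was a term, and ACADM was 0.13 once the smooth muscle score was one. Leaving out 1 piglet gave -0.067 to 0.22 for PPARA, -0.12 to 0.017 for CPT2, -0.21 to 0.063 for ACADM and -0.37 to 0.0050 for PDK4. PPARA was below 0 without control 8 or starch 5, CPT2 above 0 without control 3, ACADM above 0 without control 1, control 7 or starch 3, and PDK4 above 0 without control 9.

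The labels do not say whether the numbers in the sample titles pair the piglets. Same-numbered piglets deviated together with a correlation over 0.1 in 4 of 10 pairs, with values from -0.34 to 0.48. Of the control piglets 0 correlated best with their own number. Since the piglets also differed in their cell markers, these correlations cannot decide whether they were paired. With the replicate block, which leaves out starch 11, 0 genes passed, 188 had an unadjusted p below 0.05, and PDK4 was 0.027.

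The count of correlated pairs, 4 over all piglets, was 2 without control 5, control 8 and starch 3. There rho was 0.044 for PPARA with CPT1A, -0.28 with HADHA and -0.29 with ANGPTL4, and -0.082 for ACADM with ACADVL and -0.038 with HADHA, each of the other sign than over all piglets. In a separate check on all 21 piglets, the 2 farthest from the median of the first gene were left out, which left 19. There rho was -0.035 for PPARA with ANGPTL4, -0.096 for ACADM with ACADVL and 0.023 for ACADM with PDK4. The cause was not tested.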

Other observations

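Members were also set beside 5 genes of the same complex or step, chosen after the data were seen. Within the 18 piglets HADHA followed HADHB, the other subunit of its protein (r = 0.77, permutation p = 0.00022, adjusted p = 0.00055; rho = 0.66, p = 0.0037, adjusted p = 0.0092). PPARA followed RXRA, the receptor it pairs with on DNA (r = 0.81, p = 4e-05, adjusted p = 0.0002; rho = 0.69, p = 0.0022, adjusted p = 0.0092). CPT2 and SLC25A20 had r = 0.56 and rho = 0.53 (p = 0.016 and 0.027, adjusted p = 0.026 and 0.034). ANGPTL4 went against LPL (r = -0.51, p = 0.033, adjusted p = 0.041; rho = -0.54, p = 0.022, adjusted p = 0.034). PDK4 and PDHA1 had rho = -0.35, which did not pass (adjusted p = 0.156). Without the 2 piglets farthest from the median r was 0.54 for HADHA, 0.62 for PPARA, 0.42 for CPT2 and -0.54 for ANGPTL4, and 0 of the 5 passed by rho. The first 3 values were smaller than before and that of ANGPTL4 was not. How many of all genes reach such values with a member was not counted. Within the 18 piglets PPARA had a higher rho with LRIG2 (0.96) than with RXRA. HADHA had a higher one with GALT (0.92) than with HADHB.

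Without control 5, control 8 and starch 3, 8 of the 92 other pathway genes (8.7%) had an unadjusted p below 0.05, against 2.91% of all genes, and 0 passed after adjustment (edgeR). Of the 8, 6 were lower and 2 higher on starch. FABP2 had a log2 fold change of -1.26, CREB3L3, a transcription factor of fat metabolism, -0.62, BDH2 -0.49, SLC27A4, a fatty acid transporter, -0.48, NCOR1 -0.39 and ACADL -0.32. PDK1 and LPL both had 0.60. They were named after their values were seen.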
